A study of Mus musculus with 6 samples.

Results

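A set of 10 genes of autophagy and mitophagy was followed in the liver of inosine-treated and control mice. The set held Ulk1, Becn1, Wipi1, Atg7, Map1lc3b, Gabarapl1, Sqstm1, Bnip3, Bnip3l and Tfeb, listed by symbol with earlier results of these data known, and all 10 were found among the 16375 genes of the deposited table. The inosine group was 3 liver libraries from mice given inosine, a purine nucleoside, by intraperitoneal injection, and the control group was 3 liver libraries labelled control. Total RNA was extracted with Trizol and sequenced in bulk. Dose, vehicle, number of injections, strain, sex, age and time of collection are not stated in the labels, nor is it stated that each library is a separate animal, and a p-value here speaks only for the scatter of these 6 libraries. The comparison asks how the liver transcriptome differs after inosine. In bulk liver, fewer cells of a type and less RNA per cell cannot be told apart.

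Autophagy carries cytoplasm to the lysosome inside a double membrane, the autophagosome. The ULK kinase starts the process, the class III PI3-kinase complex of Beclin and its partners marks the growing membrane with a lipid that WIPI proteins read, and an enzyme cascade that begins with ATG7 couples proteins of the ATG8 family (LC3 and GABARAP) to that membrane. Cargo receptors such as p62, the product of Sqstm1, tie ubiquitinated cargo to the ATG8 proteins, and BNIP3 and BNIP3L do the same from the outer membrane of mitochondria, which is mitophagy. In liver the pathway is known for supplying amino acids and lipids in fasting, and its genes are switched on by TFEB and by FoxO factors when nutrients are low.

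Of the 10 genes, 0 differed between inosine and control liver past the threshold of an adjusted p of 0.05, in edgeR, in DESeq2 or, as a q-value, in the authors' deposited table. By edgeR 1 of the 10, Ulk1, had an unadjusted p under 0.05, where 14.5% of all genes tested did. Across all 12326 genes tested edgeR called 1 (0.00811%), DESeq2 called 2.14% of the genes to which it gave an adjusted p, and the authors' deposited table held 1.17% of its genes with a q-value under 0.05. The 10 genes split evenly, 5 above and 5 below control, with a median log2 fold change of inosine over control of 0.01, against -0.01 over all genes tested. The 95% intervals of the single genes, not adjusted for their number, were of unlike width. As a percent difference of inosine from control, that of Becn1, the narrowest on the log2 scale, ran from -5.59% to 19.6%, and that of Wipi1, the widest, from -35.3% to 10.7%. In 9 of the 10 the interval held 0, Ulk1 being the exception.

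Totals ran from 16383896 to 17505035 counts per library, and each of the 10 genes had at least 119 counts in every library, so all 10 passed the low-count filter. The hepatocyte genes Alb, Apoa1, Ttr, Cps1 and Serpina1a together held between 84688 and 112470 CPM, so the defining genes of the labelled tissue were present. CPM are counts scaled to the total of the library after its adjustment by the trimmed mean of M-values (TMM). Of 6 skeletal muscle genes 1 was in the table, at or below 0.480 CPM. Of 40 marker genes of other cells that were tested, 37 had a fold change below 0, while 48.2% of all genes tested were above 0. Of the 40, 0 passed in edgeR, though 11 had an unadjusted p below 0.05 there, and 6 passed in DESeq2, 4 of them red cell genes. Red cell genes summed to 505, 391 and 305 CPM in inosine against 753, 851 and 645 CPM in control, and sinusoidal endothelial genes, 8 of 8 below 0, to 147, 225 and 202 CPM in inosine against 229, 258 and 257 CPM in control. Stellate and fibroblast genes, 9 of 9 below 0 (median log2 fold change -0.42), Kupffer cell genes, 7 of 8 below 0, and T, B and neutrophil genes, 5 of 5 tested below 0, had sums that overlapped between the groups. Cholangiocyte genes summed higher in inosine, at 46.9, 56.0 and 38.2 CPM against 29.8, 32.6 and 37.4 CPM in control, while 3 of the 5 tested were below 0. The part of these cells in the values of the 10 genes was not tested. Control 1 stood apart from the other controls on genes of the clock and of glucocorticoid response, described with the values it touches.

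By TPM, a level corrected for transcript length, the genes ran over a wide range. Averaged over the 6 libraries, Bnip3 stood at 302 TPM and Gabarapl1 at 299 TPM, and these 2 could not be ordered, since Bnip3 was the higher in 3 of 6 libraries. Sqstm1 followed at 216 TPM, Map1lc3b at 71.2, Becn1 at 48.2 and Bnip3l at 36.2 TPM, each with a range over the libraries that did not touch that of its neighbour. Ulk1 at 17.2 TPM and Atg7 at 14.1 TPM overlapped. Wipi1 was at 6.79 TPM and Tfeb, the transcription factor, lowest at 5.17 TPM. Among the genes tested, by mean TPM, Bnip3 lay at percentile 96.3 and Tfeb at percentile 40.3, and 8 of the 10 lay above the median gene.

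**Figure D1:**
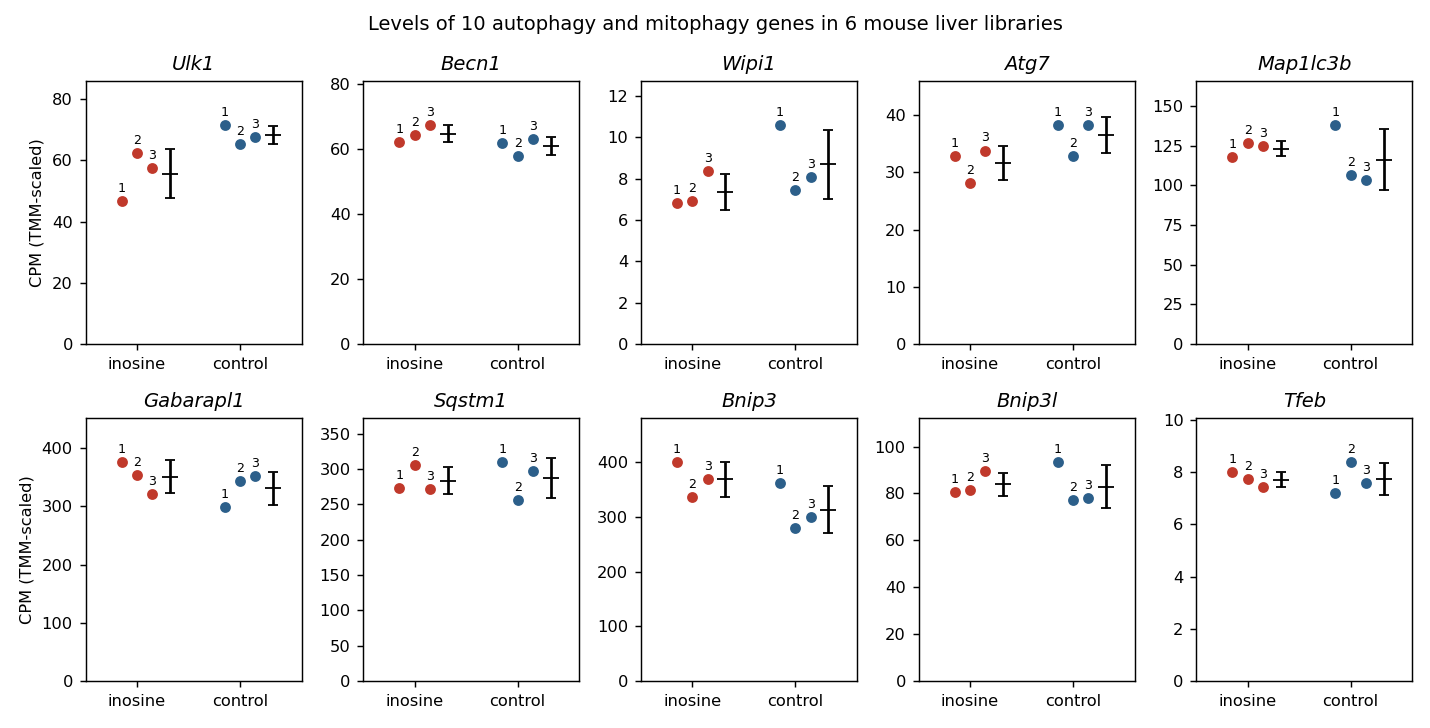
Level of each of the 10 genes in every library, in CPM scaled by the trimmed mean of M-values (TMM). Points are single libraries numbered by replicate, with inosine in red and control in blue, and the black bars give mean ± SD (n = 3). In Ulk1 alone all 3 inosine libraries lie on one side of all 3 controls, and control 1 is the highest point in 5 panels.

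The regulatory sequence upstream of a gene is shown for the gene of the 10 farthest above control, Bnip3, and the one farthest below, Ulk1. Each is the 250 bases before the annotated start in RefSeq on GRCm38.p6, read 5′ to 3′ on the gene's own strand, with the hexamer CACGTG in capitals where it occurs. CACGTG reads the same on both strands and is the core of the element that TFEB binds and of the E-box of clock factors.
Bnip3, minus strand, chr7:138909507-138909756: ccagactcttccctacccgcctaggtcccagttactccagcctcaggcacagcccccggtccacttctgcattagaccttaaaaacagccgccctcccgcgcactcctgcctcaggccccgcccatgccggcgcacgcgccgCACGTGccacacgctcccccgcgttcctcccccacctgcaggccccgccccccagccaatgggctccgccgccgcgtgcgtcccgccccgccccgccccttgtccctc
Ulk1, minus strand, chr5:110810082-110810331: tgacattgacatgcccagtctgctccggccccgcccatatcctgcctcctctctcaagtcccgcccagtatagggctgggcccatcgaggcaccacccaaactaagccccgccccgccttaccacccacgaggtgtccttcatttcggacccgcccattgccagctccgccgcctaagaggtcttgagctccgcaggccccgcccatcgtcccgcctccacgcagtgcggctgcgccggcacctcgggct
In the Bnip3 window the hexamer occupied bases 108 to 103 before the start, and the Ulk1 window held none. RefSeq windows were found for 8 of the 10 genes, 10 windows in all since Tfeb has several starts. Of these 10, 2 held CACGTG, those of Bnip3 and Atg7, and the share over all 32851 mouse windows of the same length was 6.02%. The Atg7 window lies 28.0 kb inside the gene's RefSeq span. The longer TCACGTG, or its reverse CACGTGA, which contains the same hexamer, was found in the Atg7 window (3.13% of all windows), and the FoxO-type motif GTAAACA, or TGTTTAC, in 0 of the 10 (3.17% of all windows). A match of letters is not evidence of binding. The Bnip3 window was 72.4% G or C and the Ulk1 window 67.2%, where the median over all windows was 52.4%.

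Initiation of autophagy was represented by Ulk1, the kinase that receives signals from mTOR and AMPK. Ulk1 (gene ID 22241) spans chr5:110932355-110957991 on GRCm39. It measured 46.8, 62.4 and 57.6 CPM in the inosine libraries, against 71.6, 65.5 and 67.8 CPM in the controls. All 3 inosine libraries lay below all 3 controls, with inosine 1 lowest. The means were 55.6 ± 8.0 CPM in inosine and 68.3 ± 3.1 CPM in control (SD, n = 3 each), a log2 fold change of -0.30 (SE 0.11, 95% interval -0.56 to -0.04, edgeR adjusted p = 0.30). Groups did not overlap in 1 of the 10 genes, where 20.9% of all genes tested showed the same. In TPM the Ulk1 values were 13.5, 19.0 and 14.9 in inosine and 19.8, 17.3 and 18.4 in control, and on that scale inosine 2 lay inside the control range. Without inosine replicate 1 the log2 fold change was -0.19.

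Becn1 encodes Beclin, the scaffold of the class III PI3-kinase complex (gene ID 56208, chr11:101179084-101193112). It had the smallest SE of the 10, with 62.2, 64.5 and 67.5 CPM in inosine and 61.9, 57.8 and 63.0 CPM in control. The groups overlapped. The difference came to 0.09 on the log2 scale (SE 0.07, 95% interval -0.08 to 0.26, edgeR adjusted p = 0.61). Wipi1, a reader of the lipid that this complex makes (gene ID 52639, chr11:109464347-109502215), was weakly expressed, at 6.81, 6.93 and 8.36 CPM in inosine and 10.6, 7.44 and 8.05 CPM in control. Control 1 was the highest library and inosine 3 lay within the control range. Its log2 fold change of -0.24 (SE 0.17) had the widest interval of the 10, -0.63 to 0.15 (edgeR adjusted p = 0.54), and came to -0.07 without control replicate 1.

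Atg7 encodes the activating enzyme for both ubiquitin-like conjugations of autophagy (gene ID 74244, chr6:114620075-114837565), and its span of 217 kb was the longest of the 10. It measured 32.9, 28.2 and 33.8 CPM in inosine, against 38.2, 32.8 and 38.3 CPM in control. Inosine 1 and 3 lay just above control 2 and below the other controls, so the groups overlapped. Inosine over control came to a log2 fold change of -0.20 (SE 0.10, 95% interval -0.44 to 0.03, edgeR adjusted p = 0.40). Its span shares 611 bases with that of Vgll4. Becn1 shares 444 bases with Cntd1, and Map1lc3b 66 bases with Zcchc14. The labels do not say whether the counting used strand, so reads in those stretches could belong to either gene.

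**Figure D2:**
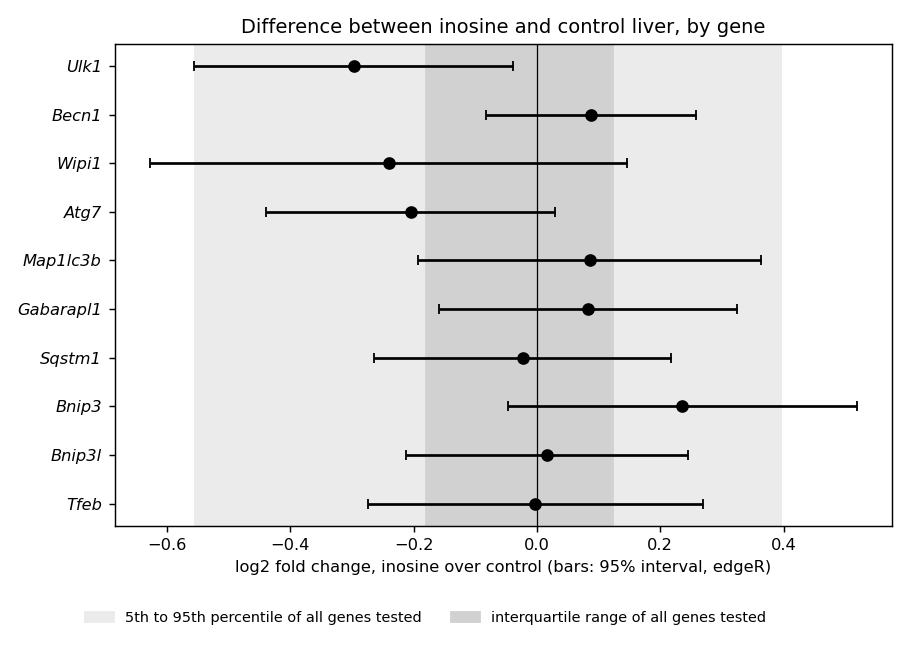
Log2 fold change of inosine over control for the 10 genes with 95% intervals from edgeR, over bands that hold the 5th to 95th percentile and the interquartile range of all 12326 genes tested. Ulk1, at -0.30, has the only interval that leaves out 0, and 6 of the 10 genes lie inside the inner band.

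The ATG8 proteins coat the membrane and hold the cargo receptors. Map1lc3b, the gene of LC3B (gene ID 67443, chr8:122317177-122325499), measured 118, 127 and 125 CPM in inosine, against 138, 107 and 103 CPM in control. The inosine libraries lay close together, above controls 2 and 3 and below control 1. Inosine over control gave a log2 fold change of 0.09 (SE 0.12, 95% interval -0.19 to 0.36, edgeR adjusted p = 0.78), and 0.23 (SE 0.08, edgeR adjusted p = 0.19) without control replicate 1, but 0.03 without control replicate 2 and 0.01 without control replicate 3 (edgeR adjusted p = 0.96 and 0.98). Gabarapl1, known as a FoxO target in muscle (gene ID 57436, chr6:129510155-129519294), measured 377, 355 and 322 CPM in inosine and 299, 344 and 351 CPM in control. Here control 1 was the lowest library. The difference was 0.08 on the log2 scale (SE 0.10, edgeR adjusted p = 0.74).

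Among the 5 ATG8 family genes in TPM, which allows genes to be compared, Gabarapl1 and Gabarap were the most abundant and Map1lc3a the least. Gabarapl1 averaged 315 ± 46 TPM in inosine and 282 ± 20 TPM in control, and Gabarap 298 ± 15 TPM in inosine and 281 ± 9 TPM in control (SD, n = 3 each). Map1lc3b averaged 74.9 ± 7.2 TPM in inosine and 67.5 ± 12.8 TPM in control, and Map1lc3a 45.5 ± 3.1 TPM in inosine and 38.8 ± 2.6 TPM in control (SD, n = 3 each). Map1lc3b thus held 7.98%, 8.88% and 8.67% of the family's TPM in the inosine libraries and 10.1%, 7.79% and 7.50% in the controls. The difference of the mean shares, inosine minus control, was 0.06 percentage points (exact two-sided permutation test, p = 1). In CPM all 5 family members had a fold change above 0 and 0 of the 5 passed, with 0 at an unadjusted edgeR p under 0.05 and DESeq2 calling 0. The directions were the same in TPM, while without inosine replicate 3 or control replicate 3 they were above 0 in 4 of the 5. Their median log2 fold change was 0.09, and groups did not overlap in 1 of the 5, Map1lc3a, near the 20.9% of all genes tested. Map1lc3a was at 0.16 (SE 0.08, edgeR adjusted p = 0.42). Besides Map1lc3a, the smallest p of the family's genes outside the 10 was that of Gabarapl2, also called GATE-16. Gabarapl2 measured 71.6, 72.7 and 79.1 CPM in inosine and 73.9, 63.5 and 65.7 CPM in control (log2 fold change 0.14, SE 0.09, edgeR adjusted p = 0.50).

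**Figure D3:**
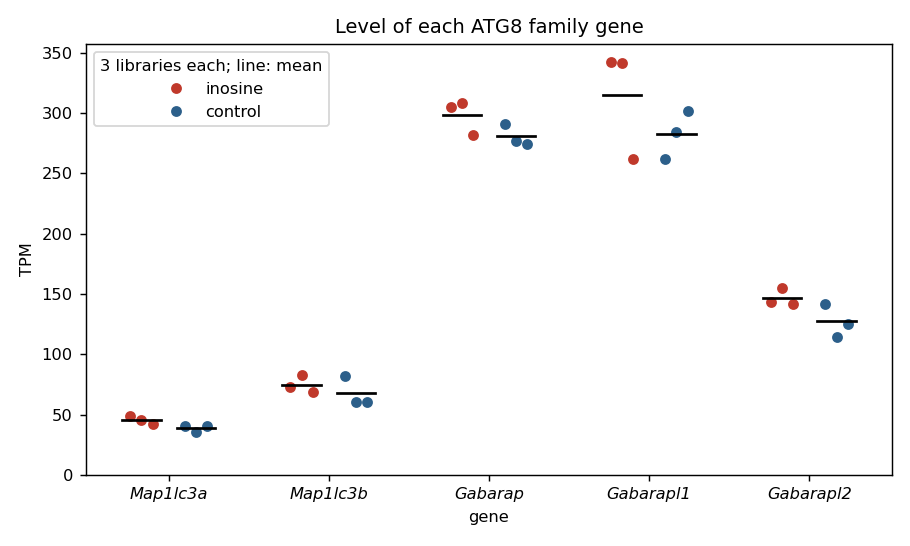
TPM of the 5 ATG8 family genes in each library, with inosine in red, control in blue and the group mean as a line (n = 3 each). Gabarap and Gabarapl1 lie between 262 and 342 TPM while Map1lc3b, the gene of the most used autophagosome marker, lies between 60.1 and 82.8 TPM.

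Sqstm1 encodes the cargo receptor p62, which autophagy itself degrades at the protein level (gene ID 18412, chr11:50090979-50105303). Its mRNA measured 273, 305 and 271 CPM in inosine, against 310, 256 and 297 CPM in control. The highest and the lowest library were both controls. The difference was -0.02 on the log2 scale (SE 0.10, 95% interval -0.26 to 0.22, edgeR adjusted p = 0.94), and its sign was the opposite in TPM, with 220 ± 32 TPM in inosine and 213 ± 26 TPM in control (SD, n = 3 each).

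The mitophagy receptors Bnip3 and Bnip3l are paralogs that sit in the outer mitochondrial membrane. Bnip3, a known target of the hypoxia factor HIF and of FoxO (gene ID 12176, chr7:138492565-138511235), measured 401, 337 and 369 CPM in inosine, against 361, 280 and 299 CPM in control. Inosine 1 and 3 lay above all controls and inosine 2 lay below control 1. The means were 369 ± 32 CPM in inosine and 314 ± 43 CPM in control (SD, n = 3 each), a log2 fold change of 0.24 (SE 0.12, 95% interval -0.05 to 0.52, edgeR adjusted p = 0.42). Without control replicate 1 it was 0.35 (SE 0.11, edgeR adjusted p = 0.16). On the other omissions of a library it ran from 0.16, without control replicate 2, to 0.30, without inosine replicate 2 (edgeR adjusted p = 0.72 and 0.45). Bnip3l, also called Nix and known for clearing mitochondria from maturing red cells (gene ID 12177, chr14:67222688-67246580), measured 80.8, 81.3 and 89.4 CPM in inosine and 93.6, 77.2 and 77.9 CPM in control. Control 1 was the highest library. The difference was 0.02 on the log2 scale (SE 0.10, edgeR adjusted p = 0.96). The red cell markers that were lower in inosine stand beside this value, and their part in it was not tested.

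Within each library Bnip3 made up most of the TPM of this receptor pair. Its share was 91.0%, 89.4% and 89.4% in inosine and 88.7%, 88.0% and 88.7% in control. All 3 inosine libraries lay above all 3 controls, with means of 89.9% ± 0.9 in inosine and 88.5% ± 0.4 in control (SD, n = 3 each), a difference of 1.47 percentage points. The exact two-sided permutation test gave p = 0.10, which is the smallest that 3 libraries against 3 allow, and 0.20 after Benjamini-Hochberg adjustment over the 2 shares tested. In CPM, which does not correct for length, the difference was 2.39 percentage points, with the same p.

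Tfeb encodes the transcription factor that switches on lysosomal and autophagy genes and is itself controlled mainly by its phosphorylation and entry into the nucleus (gene ID 21425, chr17:48047962-48103341). It measured 7.99, 7.73 and 7.42 CPM in inosine, against 7.20, 8.40 and 7.58 CPM in control. The inosine libraries lay inside the control range. On the log2 scale inosine differed from control by -0.0024 (SE 0.12, 95% interval -0.27 to 0.27, edgeR adjusted p = 0.995).

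Control 1 differed from controls 2 and 3 on several of these genes. It was the highest of the controls in 6 of the 10 and the highest of all 6 libraries in 5, namely Ulk1, Sqstm1, Map1lc3b, Bnip3l and Wipi1, while over all genes tested it was the highest control in 36.6%. Relative to the mean of controls 2 and 3 it held 1.37 times as much Wipi1, 1.32 times as much Map1lc3b, 1.25 times as much Bnip3 and 1.21 times as much Bnip3l, but 0.86 times as much Gabarapl1. The same library stood apart on the clock gene Dbp, with 65.8, 55.0 and 40.8 CPM in inosine and 19.4, 158 and 141 CPM in controls 1 to 3. On Nr1d1, a clock repressor, it measured 5.63 CPM against 64.4 and 33.3 CPM in the other controls, with 14.0, 9.51 and 11.9 CPM in inosine. On Fkbp5, induced by glucocorticoids, it measured 197 CPM against 25.5 and 31.4 CPM in the other controls, with 97.8, 164 and 197 CPM in inosine. Per2, another clock gene, measured 111, 115 and 118 CPM in inosine and 78.9, 73.1 and 73.7 CPM in controls 1 to 3, so control 1 lay near the other controls and all inosine libraries above all controls (log2 fold change 0.61, SE 0.07, edgeR adjusted p = 0.053). Whether the state of the clock or of glucocorticoid signalling has a part in the values of the 10 genes was not tested.

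Without control replicate 1 the groups did not overlap in 4 of the 10 genes, where 40.0% of all genes tested showed the same in that comparison. Ulk1, below control, was so with all libraries too, and Map1lc3b, Bnip3 and Bnip3l, above control, were added. In that comparison edgeR called 0 of the 10 and 0.449% of all genes, and 2 of the 10, Map1lc3b and Bnip3, had an unadjusted p under 0.05, where 19.4% of all genes did. The smallest adjusted p was that of Bnip3, 0.16.

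**Figure D4:**
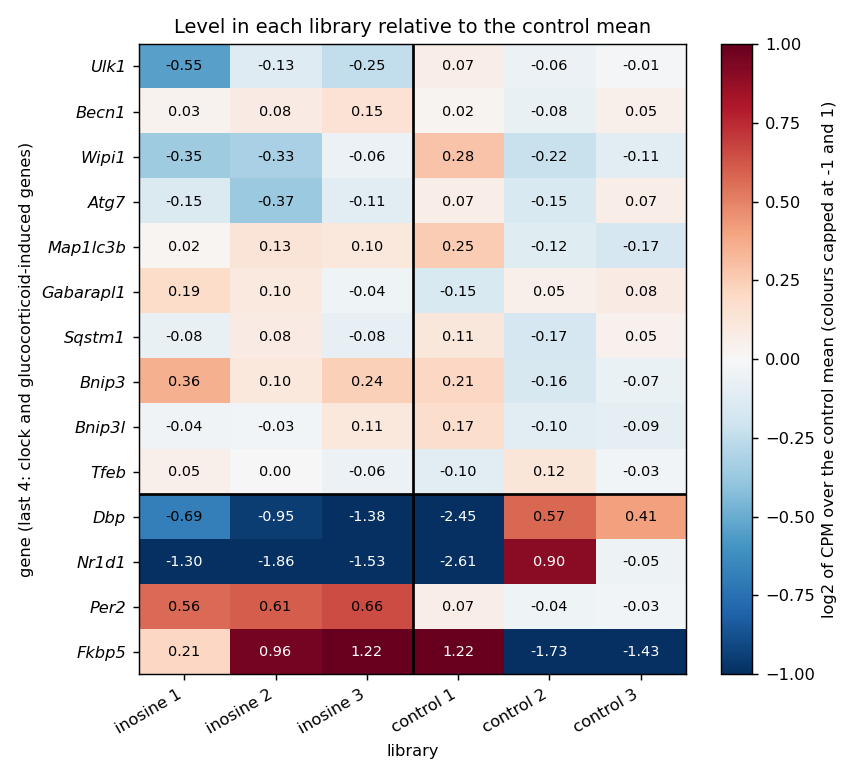
Level of each gene in each library relative to the control mean, as the log2 of CPM over that mean, with the 10 genes above the black line and 4 clock or glucocorticoid-induced genes under it. Control 1 is at 0.25 for Map1lc3b and 0.28 for Wipi1, and at -2.45 for Dbp and 1.22 for Fkbp5, where controls 2 and 3 lie on the other side.

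The wider machinery was read from 10 lists by role that hold 94 genes, 84 of them outside the 10. Of these 84, edgeR called 0, with 4 higher and 6 lower at an unadjusted p under 0.05 (7.21% and 7.26% of all genes tested), while 2 passed in DESeq2, Atg16l1 and Flcn. The q-values of both in the authors' deposited table, 0.060 and 0.061, miss the threshold. They divided into 44 above and 40 below control (48.2% of all genes were above), and 22.6% had groups that did not overlap, against 20.9% of all genes tested. Their median log2 fold change was 0.01. With limma on log2(TPM + 1) 60.8% of all genes tested lay above 0, with a median of 0.05, so counts of genes above control are set higher on that scale.

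In the ULK complex all 5 genes had a fold change below 0 (median -0.19), but 4 of the 5 did so in TPM or without inosine replicate 1, and 0 passed edgeR or DESeq2, with 2 at an unadjusted edgeR p under 0.05. Besides Ulk1 this was Atg101, a subunit that stabilises the complex, with 18.3, 13.9 and 15.7 CPM in inosine and 20.6, 21.3 and 19.0 CPM in control (log2 fold change -0.34, SE 0.12, edgeR adjusted p = 0.27). The scaffold Rb1cc1, also called FIP200, measured -0.11 on the log2 scale. Taken library by library against the mean of the controls, the list's median stood at -0.22, -0.22 and 0.02 in inosine and 0.02, -0.03 and -0.01 in control, so inosine 3 lay inside the control range. In the class III PI3-kinase list 2 of 8 genes were above control, or 5 in TPM (median -0.06), with the subunit Nrbf2 at 0.26 and Atg14, which directs the complex to autophagy, at -0.28. Among 9 genes of phagophore growth the median was 0.01, with the lipid scramblase gene Tmem41b at 0.35 (SE 0.14, edgeR adjusted p = 0.32) and the WIPI-type protein gene Wdr45b at 0.20. None of the 17 genes in these 2 lists passed edgeR or DESeq2, and 1 of them, Tmem41b, had an unadjusted edgeR p under 0.05.

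In the conjugation list of 11 genes 7 were above control, or 8 in TPM and 5 to 8 when 1 library was left out. The median was 0.05, and between -0.03 and 0.08 when 1 library was left out. Atg16l1, whose product places the conjugation at the membrane, measured 37.4, 37.9 and 38.7 CPM in inosine, against 28.1, 29.7 and 29.0 CPM in control. The 2 groups were far apart relative to their spread, and the log2 fold change was 0.39 (SE 0.07). It missed the threshold in edgeR (adjusted p = 0.087) and passed in DESeq2 (adjusted p = 0.037). Over the 6 omissions of a library its log2 fold change stayed between 0.37 and 0.41. Atg10, of the second conjugation enzyme for ATG12, measured -0.24.

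Of 7 cargo receptor genes 6 were below control, or 5 in TPM and 5 to 7 when 1 library was left out (median -0.08). Of the 7, 0 passed in edgeR or DESeq2, with 1 at an unadjusted edgeR p under 0.05. That was Calcoco1, a receptor for the ER, with 23.1, 25.8 and 24.6 CPM in inosine and 27.5, 35.9 and 32.9 CPM in control (log2 fold change -0.39, SE 0.11, edgeR adjusted p = 0.21). Nbr1, a receptor related to p62, measured -0.17, with groups that did not overlap. Of 12 mitophagy genes 10 were above control, or 8 or 9 when 1 library was left out (median 0.07), and 0 passed in edgeR or DESeq2, with 0 at an unadjusted edgeR p under 0.05. The kinase gene Pink1 measured 207, 203 and 213 CPM in inosine and 192, 192 and 188 CPM in control (log2 fold change 0.12, SE 0.07, edgeR adjusted p = 0.48), and the receptor Bcl2l13 measured 0.14. The 7 ER-phagy receptors, 4 above and 3 below control (5 above in TPM), had a median of 0.09, with Tex264 at 0.15. Calcoco1, at -0.39, belongs to this list too and was its only gene at an unadjusted edgeR p under 0.05. Among 13 fusion genes the median was -0.03, with Tecpr1, a tether of autophagosome and lysosome, at -0.48 and Vps18, of the HOPS tether, at -0.29 (edgeR adjusted p = 0.29 and 0.35).

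The list for transcription and nutrient control, 18 genes with a median of 0.01, held the largest differences of either sign. Flcn, the folliculin gene, whose product acts through Rag GTPases to keep TFEB out of the nucleus, measured 21.6, 21.4 and 24.1 CPM in inosine, against 25.0, 41.3 and 38.7 CPM in control. All inosine libraries lay below all controls, with control 1 nearest to them. On the log2 scale the difference was -0.65 (SE 0.18, edgeR adjusted p = 0.20). Flcn passed in DESeq2 (adjusted p = 0.040) and, without control replicate 1, in edgeR (log2 fold change -0.84, SE 0.09, adjusted p = 0.035). On the other omissions of a library its log2 fold change ran from -0.70 to -0.51, and it did not pass (edgeR adjusted p from 0.33 to 0.46). Tsc1, an inhibitor of mTOR, measured 22.1, 20.4 and 21.3 CPM in inosine and 26.7, 30.2 and 28.5 CPM in control (log2 fold change -0.42, SE 0.08, edgeR adjusted p = 0.11). Foxo1 and Fnip1, the partner of folliculin, were picked after their values were seen. Foxo1 measured 72.3, 80.5 and 72.8 CPM in inosine and 70.0, 35.5 and 48.6 CPM in control (log2 fold change 0.55, SE 0.21, edgeR adjusted p = 0.31). Fnip1 measured 45.0, 46.9 and 40.7 CPM in inosine and 45.7, 65.7 and 61.0 CPM in control (log2 fold change -0.38, SE 0.14, edgeR adjusted p = 0.28). In Flcn, Foxo1 and Fnip1 control 1 was the control nearest to the inosine libraries.

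**Figure D5:**
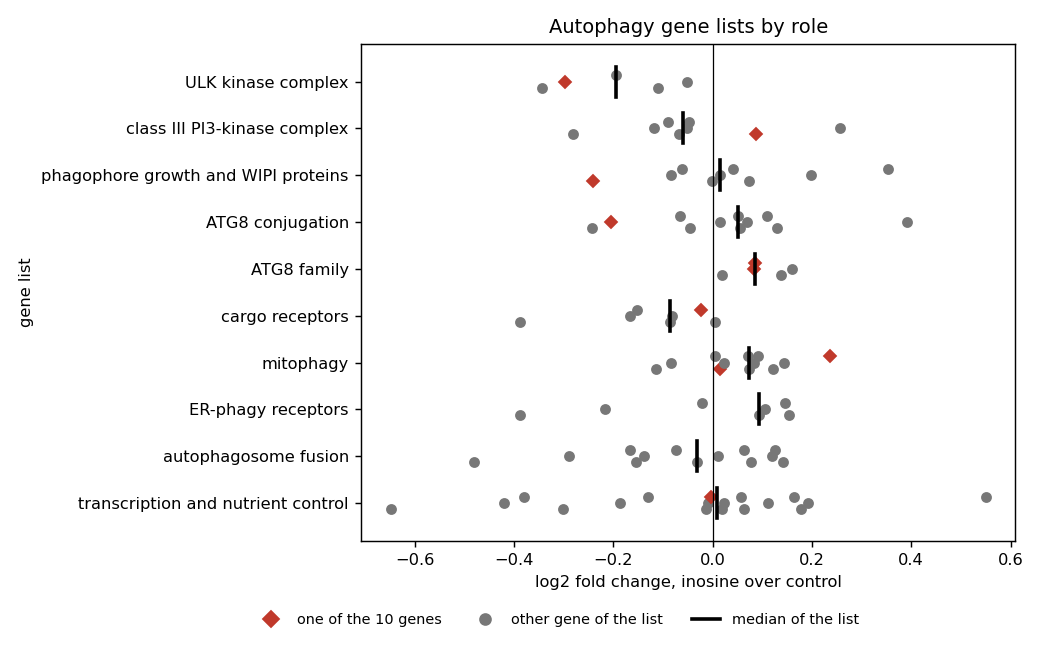
Log2 fold change of inosine over control for the 94 genes of the 10 autophagy lists, 1 row per list. Red diamonds are the 10 genes followed here, grey points the other genes and black lines the medians. On this CPM scale the 5 genes of the ULK complex lie below 0 (4 of 5 in TPM) and the 5 of the ATG8 family above it, and the widest spread is in transcription and nutrient control, between -0.65 and 0.55.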

How the data were processed

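Liver RNA was sequenced in 3 inosine and 3 control libraries. The authors deposited estimated counts per gene, in the form of RSEM expected counts, with TPM and FPKM beside them, per the file headers. Per the submitters' processing notes, Bowtie2, RSEM and the build GRCm39 were used, with no version given. FPKM values as deposited were not used for any result. Each gene also carries the authors' own DESeq2 log2 fold change, p-value and q-value, as deposited. All 18 columns of per-sample values were matched to a library by its title. The table held 16375 genes.

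Counts, of which 89.8% to 90.3% per library were whole, were rounded. The main test was edgeR 4.0.16 (glmQLFit and glmQLFTest, TMM scaling, group as the only term, R 4.3.3) on the 12326 genes left by its default filter at a count of 10, two-sided, with Benjamini-Hochberg adjustment over all of them. The SE is the size of the log2 fold change divided by the square root of F. A count of 0 allows up to 3 counts, 0.171 to 0.183 CPM; such floors cover counting error only. Levels are TMM-scaled CPM or the deposited TPM. Alternatives were DESeq2 1.42.0, limma 3.58.1 on log2(TPM + 1), other size factors, no filter, a replicate block and the omission of each library. The edgeR, DESeq2 and limma steps were tested on simulated data. No pair of libraries within a group agreed within sampling noise (chi-square per gene 28.9 to 122.2). The authors' strand column differed from RefSeq for Bnip3 and Sqstm1 and is not printed.

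The 10 genes and the lists were chosen with earlier results of these data known. All 10 genes are named with their values. From each wider list the 2 other genes of smallest unadjusted edgeR p are named, and from the clock and glucocorticoid lists Dbp, Nr1d1, Per2 and Fkbp5.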

Additional observations from a re-analysis of the deposited data

How the results depend on the processing

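Of 110 values for the 10 genes under 11 alternatives, 98 kept their sign and their side of the threshold, 12 changed sign and 0 passed the threshold (smallest adjusted p = 0.16). The changes of sign were in genes near 0. For Sqstm1 and Tfeb the log2 fold change was 0.0423 and 0.0466 with limma on log2(TPM + 1), where the median over all genes tested was 0.047. For Tfeb it was 0.0039 without a filter. On the omission of single libraries it ran from -0.101 to 0.0379 for Sqstm1, -0.0330 to 0.115 for Bnip3l and -0.0475 to 0.0616 for Tfeb. The cause was not tested.

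The number of genes called of all tested was 1, against 233 with DESeq2, 9 without a filter and 0 with limma, and 0 to 56 on the omission of a library, the 56 without control replicate 1. Members whose groups do not overlap numbered 4 without control replicate 1, where 40.0% of all genes tested showed the same. They numbered 0 in TPM and 2 or 3 on the other omissions, where fewer libraries make a gap easier. For TPM and those other omissions the share over all genes is not given, so these counts cannot be set against it. Other autophagy genes called numbered 2 with DESeq2 (Atg16l1 and Flcn, log2 fold change 0.39 and -0.65) and 0 to 1 on the omission of a library. Without control replicate 1 the median of the ATG8 family was 0.18. The difference in the Map1lc3b share, 0.06 percentage points, ran from -0.42 to 0.86 on the omission of a library. That of the Bnip3 share ran from 0.94 to 1.75. In CPM the differences were 0.13 and 2.39 percentage points.

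Same-numbered libraries of the groups did not deviate together (correlations of -0.04, -0.03 and -0.02), so no pairing by number was detected. With 3 libraries a group this cannot exclude a pairing, and the labels state none. With a replicate block edgeR called 0 genes of all tested and 0 of the 10. The 95% interval given with a gene rests on the scatter of these 6 libraries and is not adjusted for the number of genes. Sizes of difference outside it are not excluded. The size that 3 libraries a group can miss at the threshold was not computed.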
